A study of Mus musculus with 12 samples.

Results

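The genes described here carry fatty acids into muscle fibres, activate them, move them into mitochondria and oxidise them, together with uncoupling proteins and 2 receptors of the peroxisome proliferator-activated receptor (PPAR) family. The set was chosen by symbol from the roles of the genes, with earlier results of these data known. All 38 of 38 listed genes were found among the 14270 genes of the expression table. All 38 had a mean of at least 1 FPKM (fragments per kilobase of transcript per 1000000 fragments) over the 12 libraries and were among the 9953 genes tested, which all met this level. RNA was sequenced from the tibialis anterior, a fast muscle of the lower leg, of mice labelled WT or KO, the latter with loss of the Rev-erb receptors restricted to skeletal muscle. Rev-erb receptors are nuclear receptors that repress transcription and take part in the circadian clock. There were 3 libraries from each genotype at ZT10 and at ZT22, that is, 4 groups and 12 libraries. ZT, zeitgeber time, counts hours from lights on. The sample titles give ZT10 and ZT22, whereas the design text of the series gives ZT0 and ZT12, so the clock hour of each group is uncertain. No label or design text used here states the alleles, the Cre driver, the strain, sex or age of the animals, or whether each library came from a separate animal, so the p-values measure the spread between these libraries.

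Muscle takes up fatty acids released from circulating triglycerides by lipoprotein lipase, binds them to cytosolic carriers, couples them to coenzyme A, and passes them as carnitine esters across the inner mitochondrial membrane. Inside the mitochondrion the chain is shortened by cycles of dehydrogenation, hydration, a second dehydrogenation and thiolysis, and electrons leave through the electron transfer flavoprotein. PPARα and PPARδ are nuclear receptors activated by fatty acids, and in muscle and other tissues many genes of this route are known PPAR targets.

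The targeted gene was read first. Nr1d1, which encodes REV-ERBα, stood at 27.6 to 37.0 FPKM in WT and 359 to 503 FPKM in those labelled KO at ZT10, and at 38.0 to 54.0 against 328 to 369 FPKM at ZT22. The direction was the opposite of what the label says of the gene, and a count over the whole transcript does not show whether an exon is missing. Nr1d2, which encodes REV-ERBβ, stood at 37.5 to 43.6 FPKM in WT and 36.5 to 40.6 FPKM in KO at ZT10 (adjusted p = 0.593), and at 28.4 to 29.7 against 36.3 to 38.9 FPKM at ZT22, where it rose by 0.36 ± 0.08 (adjusted p = 0.0078). "KO" therefore names the libraries by their label throughout. Fibre markers of fast muscle were abundant: Myh4, the fast IIb myosin heavy chain, stood at 7394 to 10433 FPKM, and Myh7, the slow one, at 0.170 to 0.470 FPKM. Of 6 tested markers of slow or oxidative fibres, 1 rose in KO at ZT10. It was Myl2, a slow myosin light chain, at 0.470 to 2.94 FPKM in WT and 16.9 to 55.4 FPKM in KO (adjusted p = 0.00575), highest in KO replicate 3. In KO, Myl3 fell with time by 1.05 on the log2 scale (adjusted p = 0.0464), from 38.5 to 136 FPKM at ZT10 to 29.4 to 64.0 FPKM at ZT22. The sum of 7 such markers overlapped between the genotypes at both times (167 to 244 FPKM in WT and 167 to 295 FPKM in KO at ZT10, 225 to 290.0 against 132 to 296 FPKM at ZT22), and the part of Myl2 and Myl3 in the results was not tested. Summed over 6 muscle fibre markers the level was 79134 to 90146 FPKM in WT and 101461 to 108008 FPKM in KO at ZT10, and 58511 to 66757 against 74279 to 77800 FPKM at ZT22. The sum thus moved with both genotype and time. All 6 differences between genotypes were above 0 at both times, whereas between times 2 of the 6, Myh4 and Tnnt3, did not fall. The part of this sum in the results below was not tested. In tissue RNA, fewer cells of a type and less RNA per cell cannot be told apart. Fragments per library, estimated only roughly from the steps between low values, lay between 11.08 and 14.16 in units of 1000000.

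The DNA just before 3 genes, and before 1 gene of a pair that shares its promoter region, is printed here. Several motifs of clock and nuclear receptor factors are short enough to be looked for by letters. Calls of these 3 genes held without any 1 library, but so did those of others such as Ucp2, Cpt1a and Ppara. For each of the 3 a motif was named, and only a window that held it was printed, so their matches come from the choice. Each window runs from 250 bases before to 50 bases after a RefSeq start site (mouse build GRCm38.p6), on the gene's own strand. The capitals mark, in each window, the matches of the motif or motifs named for that gene in the next sentences. Slc27a1 (chr8:71570344-71570643, plus strand) encodes a fatty acid transport protein, and its window held the E-box CACGTG and a match of TTANGTAA. That pattern was searched for the D-box with any base at N. The letters there were TTAAGTAA, which are not shown to be a D-box. Acsl6 (chr11:54303574-54303873, plus strand) encodes an acyl-CoA synthetase, and its window held the extended half-site TCAAGGTCA on the opposite strand. A further AGGTCA of Acsl6, which starts at position -189 on the opposite strand, is left in lower case. Ucp3 (chr7:100472741-100473040, plus strand) encodes uncoupling protein 3, and its window held the nuclear receptor half-site AGGTCA at 2 positions. Hadhb (chr5:30155003-30155302, plus strand) encodes the beta subunit of the mitochondrial trifunctional protein, and its window held none of the motifs searched.
Slc27a1: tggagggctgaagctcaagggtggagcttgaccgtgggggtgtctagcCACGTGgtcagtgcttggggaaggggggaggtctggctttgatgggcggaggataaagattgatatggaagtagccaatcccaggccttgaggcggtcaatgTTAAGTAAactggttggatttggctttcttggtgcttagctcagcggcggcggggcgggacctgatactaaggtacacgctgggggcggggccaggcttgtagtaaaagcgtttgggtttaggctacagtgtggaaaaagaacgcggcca
Acsl6: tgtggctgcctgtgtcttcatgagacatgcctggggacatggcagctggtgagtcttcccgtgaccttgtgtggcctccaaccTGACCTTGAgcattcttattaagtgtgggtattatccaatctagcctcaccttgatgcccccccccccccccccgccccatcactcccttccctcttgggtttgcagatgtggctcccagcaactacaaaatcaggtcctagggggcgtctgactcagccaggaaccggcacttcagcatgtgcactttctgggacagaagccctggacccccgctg
Ucp3: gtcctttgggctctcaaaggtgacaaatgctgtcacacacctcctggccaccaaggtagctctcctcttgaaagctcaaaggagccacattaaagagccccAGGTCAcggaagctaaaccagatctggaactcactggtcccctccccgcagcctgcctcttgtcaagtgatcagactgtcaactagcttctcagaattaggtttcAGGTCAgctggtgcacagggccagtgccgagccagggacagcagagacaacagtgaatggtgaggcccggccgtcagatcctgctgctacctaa
Hadhb: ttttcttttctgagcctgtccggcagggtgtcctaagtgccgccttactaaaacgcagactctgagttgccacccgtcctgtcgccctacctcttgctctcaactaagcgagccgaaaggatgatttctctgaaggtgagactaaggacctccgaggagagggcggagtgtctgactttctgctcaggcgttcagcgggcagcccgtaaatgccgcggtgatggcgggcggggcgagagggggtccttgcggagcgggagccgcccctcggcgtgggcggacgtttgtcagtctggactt

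Of the 38 genes, 31 had such a window (36 windows in all, out of 32851 in the RefSeq table), and Angptl4, Acaa2, Decr1, Acot13, Cpt1b, Lpl and Crat had none. Letters were searched on both strands. AGGTCA was found in the windows of 7 genes (Acacb, Acadm, Acadvl, Acsl6, Cd36, Cpt1a and Ucp3), and in 16.3% of all windows. The longer TCAAGGTCA, which contains AGGTCA, was found only at Acsl6 among the 31 genes and in 0.423% of all windows. CACGTG and TTANGTAA were each found only at Slc27a1 and in 7.15% and 2.32% of all windows. The core of the ROR response element, a half-site with A and T before it that REV-ERBs also bind and that contains AGGTCA, was in 0 of the 36 windows and 0.7% of all windows, and the direct repeat 1, a pair of half-sites AGGNCA with 1 base between them, the spacing bound by PPAR with RXR, was in 0 and 0.381%. These are matches of letters, not evidence of binding.

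The genes were strongly expressed. The median of the 38 mean levels was 76.5 FPKM, against 7.68 FPKM for all tested genes, with 17 genes over 100 FPKM, 14 between 10 and 100 FPKM and 7 under 10 FPKM. Fabp3, the fatty acid binding protein of muscle and heart, had the highest mean (875 FPKM), and Acsl5 the lowest (2.02 FPKM). FPKM is per length, but the unit was read from the values and the length used for each gene is not known. Levels of different genes can thus be compared only roughly. The muscle form of carnitine palmitoyltransferase 1, Cpt1b, stood 52.0 to 116 times as high as the liver form, Cpt1a, over the 12 libraries, and Hadhb stood 1.29 to 2.45 times as high as its partner Hadha.

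**Figure D1:**
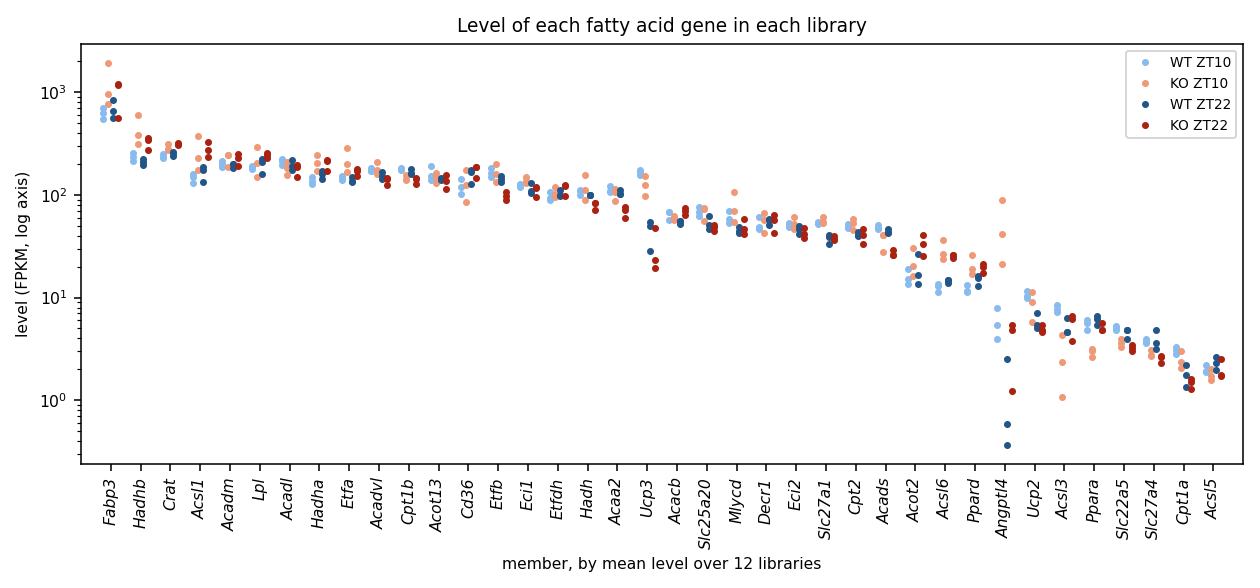
FPKM of each of the 38 genes in each of the 12 libraries on a log axis, 3 points per group, with genes ordered by their mean. Most genes keep their points close together compared with the range from Acsl5 to Fabp3, while those of Angptl4, Ucp3 and Acsl3 spread widely.

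Between genotypes at ZT10, 13 of the 38 genes passed the limma test (Benjamini-Hochberg adjusted p under 0.05 over all tested genes), with 8 that rose and 5 that fell in KO. That is 34.2% of the set, beside 14.3% of all tested genes. Here and below, the shares were not matched for level, which was higher in the set. Among all tested genes 5.36% rose and 8.96% fell. The median log2 difference of the set was 0.06, beside -0.05 for all tested genes. At ZT22, 11 genes passed, 5 up and 6 down, or 28.9% of the set beside 18.3% of all tested genes (7.13% up and 11.2% down), with a median of -0.05 beside -0.04. All log2 differences are of FPKM + 1, a scale that understates changes of low genes, and each ± is a standard error from 3 against 3 libraries. The genotypes did not overlap in 17 genes at ZT10 (10 higher and 7 lower in KO), beside 30.2% of all tested genes (11.1% higher, 19.1% lower), and in 16 at ZT22 (9 higher and 7 lower), beside 41.5% (18.3% higher, 23.1% lower). The 2 comparisons use different libraries: the sign was the same at both times in 30 of 38 genes (78.9%), beside 64.5% of all tested genes. Acads, Acsl1, Acsl6, Cpt1b, Crat, Hadhb and Slc22a5 passed at both times, each in the same direction.

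**Figure D2:**
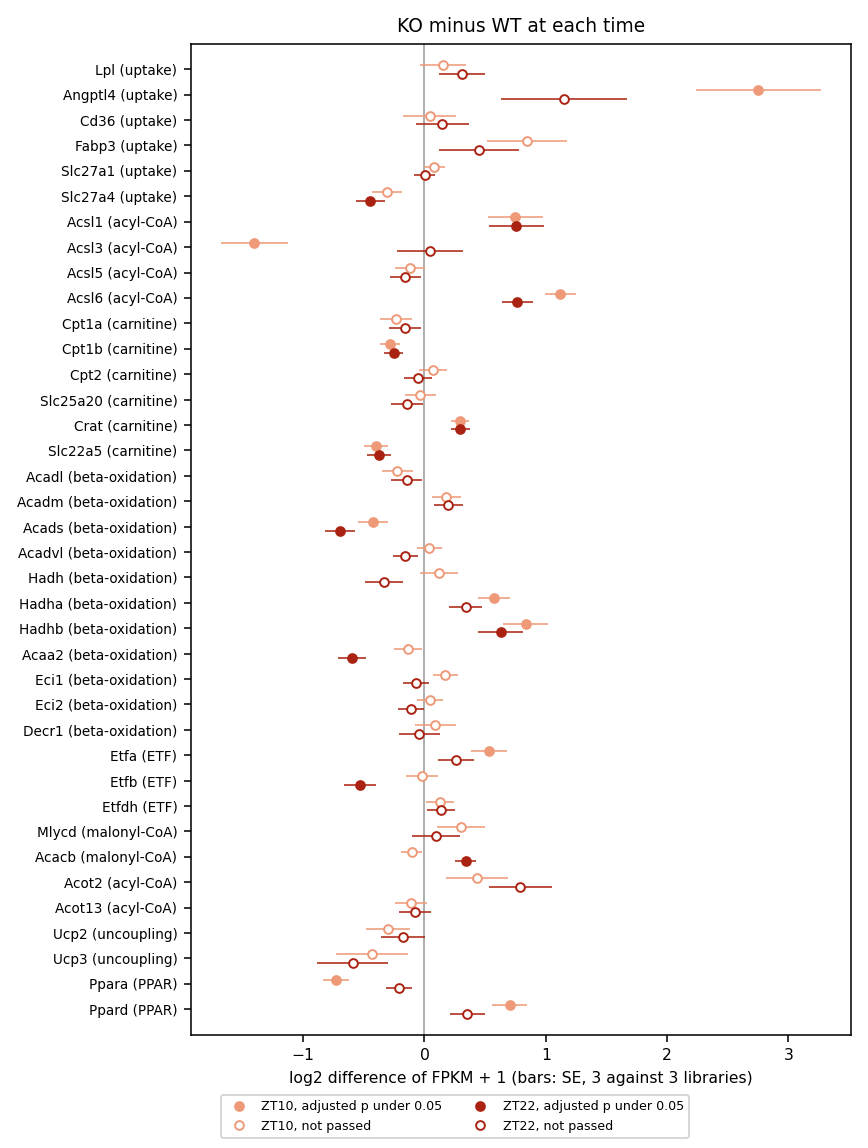
Log2 difference of FPKM + 1, KO minus WT, for each of the 38 genes at ZT10 and at ZT22, with bars for the standard error (3 against 3 libraries) and filled points for adjusted p under 0.05. Acsl6, Acsl1, Hadhb and Crat lie to the right at both times and Acads, Slc22a5 and Cpt1b to the left, while Angptl4 at ZT10 is the farthest from 0.

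Among the genes of uptake and binding, Angptl4 stood out. It encodes a secreted inhibitor of lipoprotein lipase and is a known PPAR target. Angptl4 stood at 3.98, 5.38 and 7.87 FPKM in WT and 21.2, 41.6 and 89.9 FPKM in KO at ZT10, so the lowest KO library was above the highest WT library. It rose by 2.75 ± 0.52 (adjusted p = 0.00382). At ZT22 it stood at 0.590, 2.53 and 0.370 FPKM in WT and 4.84, 5.43 and 1.24 FPKM in KO. These groups overlapped, and the difference of 1.15 did not pass (adjusted p = 0.146). The adipocyte markers were 7 genes, none at 0 in all libraries. Their sum at ZT10 was 10.5 to 19.2 FPKM in WT and 20.1 to 37.0 FPKM in KO. KO replicate 3 was highest for this sum and for Angptl4. Much of the sum was Cfd (14.1, 15.0 and 29.2 FPKM in KO), whereas Adipoq was highest in KO replicate 2 (2.87, 7.66 and 3.65 FPKM). Of 3 adipocyte markers tested, 0 passed at ZT10, beside 14.3% of all tested genes, but all 3 differences were above 0 in limma. They were 0.66 for Adipoq (adjusted p = 0.143), 0.81 for Cfd (adjusted p = 0.105) and 0.77 for Retn (adjusted p = 0.0781). At ZT22 that sum was higher in WT (18.5 to 31.1 FPKM) than in KO (9.36 to 16.1 FPKM), the opposite order to that of Angptl4, and its part in the result was not tested.

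Lpl, the lipase that Angptl4 inhibits, did not pass at either time. At ZT10 Lpl stood at 177, 187 and 192 FPKM in WT and 149, 203 and 289 FPKM in KO, and the groups overlapped, with a difference of 0.15 ± 0.19 (adjusted p = 0.642) whose sign turned without KO ZT10 replicate 3 (-0.09). At ZT22 it stood at 159, 207 and 226 FPKM in WT and 245, 256 and 228 FPKM in KO, without overlap but by little, and the difference of 0.31 had an adjusted p of 0.277. Cd36, the fatty acid translocase of the plasma membrane, stood at 102, 119 and 142 FPKM in WT and 85.2, 125 and 175 FPKM in KO at ZT10. The difference of 0.04 ± 0.22 lay within the spread of the KO libraries and turned to -0.07 without WT ZT10 replicate 1 and to -0.21 without KO ZT10 replicate 3. At ZT22 Cd36 stood at 127, 175 and 166 FPKM in WT and 185, 186 and 146 FPKM in KO, again overlapping (adjusted p = 0.681). Cd36 is also made by capillary endothelium, and the sum of 8 endothelial markers overlapped between genotypes at ZT10 (72.4 to 84.8 FPKM in WT, 60.6 to 85.6 FPKM in KO). At ZT22 that sum was 107 to 139 FPKM in WT and 97.0 to 107 FPKM in KO. All 8 differences were below 0 at both times. Only Kdr passed, at ZT22 (-0.46, adjusted p = 0.0319), or 12.5% of the markers beside 18.3% of all tested genes. The part of endothelium in the Cd36 values was not tested. Fabp3 stood at 627, 553 and 702 FPKM in WT and 764, 964 and 1923 FPKM in KO at ZT10, with the KO libraries all higher, yet did not pass (0.85 ± 0.33, adjusted p = 0.112). Slc27a1, the transport protein whose window is printed above, differed by 0.08 and 0.00 at the 2 times and passed at neither. Slc27a4, a second transport protein of this family, fell at ZT22 (-0.45 ± 0.12, adjusted p = 0.0245). That call was lost without WT ZT22 replicate 2, KO ZT22 replicate 2 or KO ZT22 replicate 3 (adjusted p at most 0.0931).

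Of the genes that activate fatty acids to acyl-CoA, Acsl6 was the steadiest in the set. Acsl6 stood at 13.1, 13.6 and 11.3 FPKM in WT and 23.8, 26.6 and 36.7 FPKM in KO at ZT10, and at 14.0, 14.7 and 14.7 FPKM against 25.8, 25.8 and 24.4 FPKM at ZT22. No KO library came near a WT library at either time. It rose by 1.12 ± 0.13 (adjusted p = 1.35e-04) and by 0.76 ± 0.13 (adjusted p = 0.00183), and both calls held without any 1 of the 12 libraries. Acsl1, the main long-chain synthetase of muscle, rose at both times. It stood at 130.0, 148 and 160.5 FPKM in WT and 174, 229 and 370.3 FPKM in KO at ZT10, a rise of 0.75 ± 0.23 (adjusted p = 0.045). At ZT22 it stood at 132, 175 and 187 FPKM in WT and 329, 274 and 233 FPKM in KO, a rise of 0.76 ± 0.23 (adjusted p = 0.0376). The groups were apart at both times, but these calls lay near the threshold. The ZT10 call was lost without any 1 of 9 libraries, WT ZT10 replicates 1, 2 and 3, KO ZT10 replicates 2 and 3, WT ZT22 replicates 2 and 3 and KO ZT22 replicates 1 and 2 (adjusted p at most 0.123), and the ZT22 call without WT ZT10 replicate 2, WT ZT22 replicate 1 or 2, or KO ZT22 replicate 1 or 2 (at most 0.144).

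Acsl3, a synthetase of the endoplasmic reticulum and lipid droplets, went the other way at ZT10. It stood at 8.46, 7.28 and 7.71 FPKM in WT and 4.31, 2.36 and 1.07 FPKM in KO, with every KO library lower, and fell by 1.40 on the log2 scale (SE 0.27, adjusted p = 0.00482). At ZT22 its levels were 4.64, 4.65 and 6.33 FPKM in WT and 6.55, 3.74 and 6.15 FPKM in KO, with overlap and a difference of 0.04. Acsl5 did not pass at either time, at 1.57 to 2.64 FPKM. Acot2, a mitochondrial thioesterase that releases fatty acids from CoA, missed the threshold at ZT22 (0.79 ± 0.26, adjusted p = 0.0501), and Acot13 passed at neither time. 

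Of 6 genes of the carnitine shuttle, 2 fell and 1 rose in KO at each time, beside 8.96% and 5.36% of all tested genes at ZT10 and 11.2% and 7.13% at ZT22. Cpt1b, the muscle enzyme of the step that commits fatty acids to mitochondria, stood at 182, 173 and 178 FPKM in WT and 141, 157 and 139.6 FPKM in KO at ZT10, and at 162, 179 and 158 FPKM against 144, 146 and 128 FPKM at ZT22. All KO libraries were lower than all WT libraries at each time. It fell by 0.28 (SE 0.08, adjusted p = 0.0323) and by 0.25 (SE 0.08, adjusted p = 0.0443). Both calls were lost when the libraries were scaled by the median of ratios. They were also lost without any 1 of 5 libraries at ZT10 (3 of WT and KO replicates 1 and 3, adjusted p at most 0.0916) and without any 1 of 8 at ZT22, the 6 libraries of that time and WT ZT10 replicates 2 and 3 (at most 0.173). Slc22a5, the carnitine transporter of the plasma membrane, stood at 4.87, 5.08 and 5.32 FPKM in WT and 3.32, 3.98 and 3.58 FPKM in KO at ZT10, and at 4.83, 4.78 and 3.93 FPKM against 3.44, 3.23 and 3.04 FPKM at ZT22. It too was lower in every KO library, with falls of 0.40 (SE 0.10, adjusted p = 0.0165) and 0.38 (SE 0.10, adjusted p = 0.0184). These calls were lost without WT ZT10 replicate 2 or 3 (at most 0.0639), and without WT ZT22 replicate 1 or 2 or KO ZT22 replicate 2 or 3 (at most 0.0782).

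Crat, which makes and uses acetylcarnitine in the mitochondrial matrix, rose at both times by nearly the same amount. It stood at 234, 227 and 247 FPKM in WT and 281, 316 and 273 FPKM in KO at ZT10, and at 239, 262 and 257 FPKM against 317, 311 and 303 FPKM at ZT22, with no overlap. The rise was 0.29 ± 0.07 (adjusted p = 0.0207) and 0.30 ± 0.07 (adjusted p = 0.0168). It was lost without WT or KO ZT10 replicate 2 (at most 0.078), and without WT ZT22 replicate 1 or KO ZT22 replicate 1 or 2 (at most 0.0768). Cpt1a, Cpt2 and the translocase Slc25a20 passed at neither time between genotypes.

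The 2 subunits of the mitochondrial trifunctional protein, which carries out 3 of the steps on long chains, moved together at ZT10. Hadhb stood at 213, 234 and 254 FPKM in WT and 313, 386 and 600.3 FPKM in KO, and Hadha, the alpha subunit, at 136, 128 and 148 FPKM in WT and 169, 204 and 245 FPKM in KO. Every KO library was higher for both genes. Hadhb rose by 0.83 ± 0.19 (adjusted p = 0.0104) and Hadha by 0.57 ± 0.13 (adjusted p = 0.013). At ZT22 Hadhb stood at 195, 222 and 210.3 FPKM in WT and 345, 354 and 275 FPKM in KO, and rose by 0.63 ± 0.19 (adjusted p = 0.0355). Hadha stood at 143, 172 and 160.1 FPKM in WT and 217, 215 and 172 FPKM in KO at ZT22, a difference of 0.34 that did not pass (adjusted p = 0.0983). The Hadha call was lost without WT ZT10 replicate 2 (0.0557). The Hadhb call at ZT22 was lost without any 1 of the 3 WT libraries or KO replicate 1 or 2 of that time (at most 0.114). The genes stand head to head on chromosome 5, with start sites 273 bases apart, and their promoter windows overlap by 228 bases (Hadha window chr5:30154931-30155230, minus strand).

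Other enzymes of beta-oxidation did not follow the trifunctional protein. Acads, the short-chain acyl-CoA dehydrogenase, stood at 47.2, 46.8 and 51.3 FPKM in WT and 40.8, 40.2 and 27.8 FPKM in KO at ZT10, and at 42.8, 46.9 and 43.0 FPKM against 28.8, 25.9 and 26.0 FPKM at ZT22. All KO libraries were lower, and it fell by 0.43 (SE 0.12, adjusted p = 0.0371) and by 0.70 (SE 0.12, adjusted p = 0.0025). The ZT10 call was lost without any 1 of WT ZT10 replicates 1, 2 and 3, KO ZT10 replicate 3, WT ZT22 replicate 1 and KO ZT22 replicate 2 (at most 0.126), under median-of-ratios scaling and after removal of a length trend, and the ZT22 call held throughout. Acaa2, the last thiolase of the mitochondrial cycle, stood at 102, 111 and 101 FPKM in WT and 76.1, 72.0 and 59.3 FPKM in KO at ZT22. It fell by 0.60 on the log2 scale (SE 0.11, adjusted p = 0.00405), with the groups well apart, while at ZT10 they overlapped (-0.14, adjusted p = 0.468). Hadh, the dehydrogenase for shorter chains, was also lower in every KO library at ZT22 (83.5, 83.3 and 71.1 FPKM against 99.4, 100.3 and 100.3 FPKM) but did not pass (-0.33, adjusted p = 0.158). Acadl, Acadm and Acadvl (the long-, medium- and very-long-chain dehydrogenases), Eci1 and Eci2 (enoyl-CoA isomerases) and Decr1 (a reductase for unsaturated chains) passed at neither time, with differences between -0.22 and 0.20.

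The 3 genes of electron transfer from these dehydrogenases each gave a different picture. Etfa, the alpha subunit of the flavoprotein, stood at 146, 141 and 153 FPKM in WT and 168, 199 and 286 FPKM in KO at ZT10, all KO libraries higher, and rose by 0.53 ± 0.15 (adjusted p = 0.0308). That call was lost without any 1 of the 3 WT libraries (at most 0.0974). At ZT22 its difference was 0.26 (adjusted p = 0.25). Etfb, the beta subunit, stood at 133, 141 and 151 FPKM in WT and 107, 97.5 and 89.6 FPKM in KO at ZT22, all KO libraries lower, and fell by 0.53 on the log2 scale (SE 0.13, adjusted p = 0.0144). Without KO ZT22 replicate 3 its adjusted p was 0.0564, and at ZT10 its groups overlapped, with a difference of -0.02. Etfdh, which passes the electrons on to ubiquinone, passed at neither time. Of the 2 genes that set malonyl-CoA, the inhibitor of Cpt1, Acacb (which makes it) rose at ZT22 (0.34 ± 0.09, adjusted p = 0.0187), a call lost without WT ZT22 replicate 2 or 3 or KO ZT22 replicate 1 or 3 (at most 0.0748), and Mlycd (which degrades it) passed at neither time. 

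The 2 PPAR genes went in opposite directions at ZT10. Ppara stood at 5.65, 6.11 and 4.87 FPKM in WT and 3.01, 2.63 and 3.17 FPKM in KO, with the groups apart, and fell by 0.73 on the log2 scale (SE 0.11, adjusted p = 0.000767). Ppard, the more abundant of the pair in this muscle, stood at 11.7, 13.3 and 11.3 FPKM in WT and 18.8, 16.9 and 26.1 FPKM in KO, with every KO library higher, and rose by 0.70 ± 0.14 (adjusted p = 0.00619). Both calls held without any 1 library. The ratio of Ppard to Ppara was 2.07 to 2.32 in the WT libraries and 6.25 to 8.23 in the KO libraries at ZT10. At ZT22 Ppara stood at 5.39, 6.12 and 6.61 FPKM in WT and 4.85, 5.63 and 4.79 FPKM in KO, overlapping (-0.21, adjusted p = 0.201). Ppard stood at 16.2, 15.6 and 12.99 FPKM in WT and 17.3, 19.7 and 21.1 FPKM in KO, apart by little and without passing (0.35, adjusted p = 0.108), although it passed without KO ZT10 replicate 3. The ratio at ZT22 was 1.97 to 3.01 in WT and 3.49 to 4.40 in KO. 

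Whether the genotype difference itself changed with time was tested as an interaction. No gene of the set passed in limma (0 of 38), beside 0.0402% of all tested genes (4 of 9953, with 0.0201% in each direction). In the set 6 genes had an unadjusted p under 0.05. That count has no share of all tested genes beside it, so nothing is read from it. The smallest adjusted p belonged to Acsl3 (1.45 ± 0.39, 0.115), Acacb (0.45 ± 0.12, 0.128) and Ppara (0.52 ± 0.15, 0.135), the differences being KO minus WT at ZT22 less the same at ZT10. Angptl4 gave -1.60 ± 0.73 (adjusted p = 0.289). Without KO ZT10 replicate 1, Acsl3 passed. A gene called at 1 time only is therefore not shown to differ between times.

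**Figure D3:**
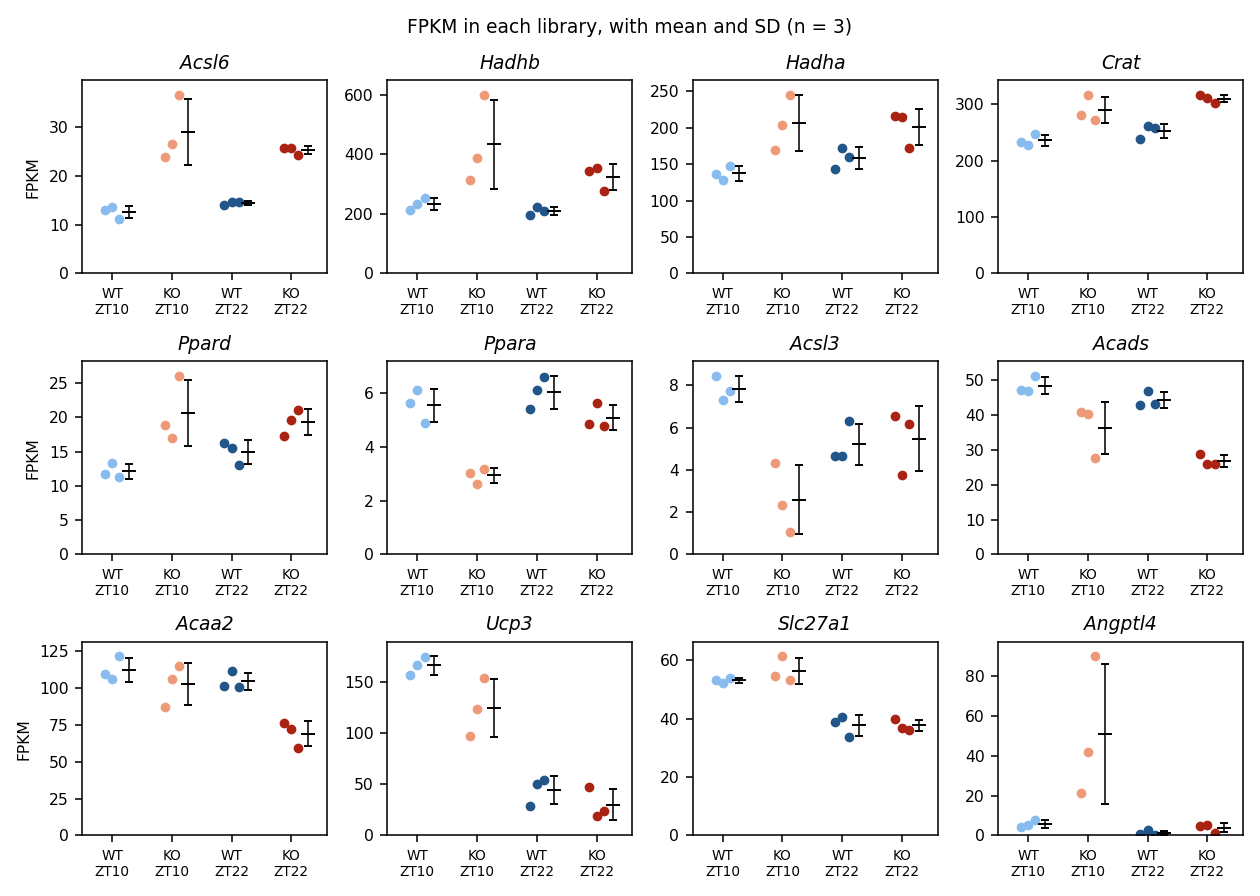
FPKM of selected genes in each of the 12 libraries, from 0 on each axis, with group means and SD bars over 3 libraries. The KO points of Acsl6 lie above all WT points at both times, Ucp3 and Slc27a1 drop from ZT10 to ZT22 in both genotypes, and KO ZT10 points spread widely for Angptl4 and Hadhb.

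Between times of day, most genes of the set that passed were lower at ZT22. In WT 5 genes passed, all lower at ZT22, or 13.2% of the set beside 24.2% of all tested genes (18.4% higher and 5.77% lower at ZT22). In KO 17 passed, 15 lower and 2 higher, or 44.7% beside 42.6% (28.9% higher and 13.7% lower). The share of the set that was lower in KO was 39.5%. Medians were -0.10 in WT and -0.15 in KO, beside 0.09 and 0.11 for all tested genes. After median-of-ratios scaling, which took the median of all tested genes in KO from 0.11 to 0.00, 9 genes fell in WT and 18 in KO. The share of all tested genes that fell under this scaling is not given here, so these counts have no background beside them. Groups did not overlap in 13 genes in WT (1 higher and 12 lower at ZT22), beside 43.6% of all tested genes (30.2% higher, 13.4% lower), and in 13 in KO (2 higher and 11 lower), beside 51.2% (34.5% higher, 16.7% lower). Angptl4, Cpt1a, Slc27a1, Ucp2 and Ucp3 passed in both genotypes, all lower at ZT22. The sign was the same in both genotypes in 30 of 38 genes (78.9%), beside 76.9% of all tested genes. The sum of muscle fibre markers was lower at ZT22 too, but not every marker fell. In each genotype 4 of the 6 differences were below 0 and 2 above. Those above were Myh4 (0.08 in WT, 0.01 in KO) and Tnnt3 (0.01 and 0.21). The endothelial sum was higher at ZT22 (107 to 139 FPKM in WT, 97.0 to 107 FPKM in KO), with 7 of 8 differences above 0 in WT and 6 in KO. The part of both sums in the time differences was not tested.

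**Figure D4:**
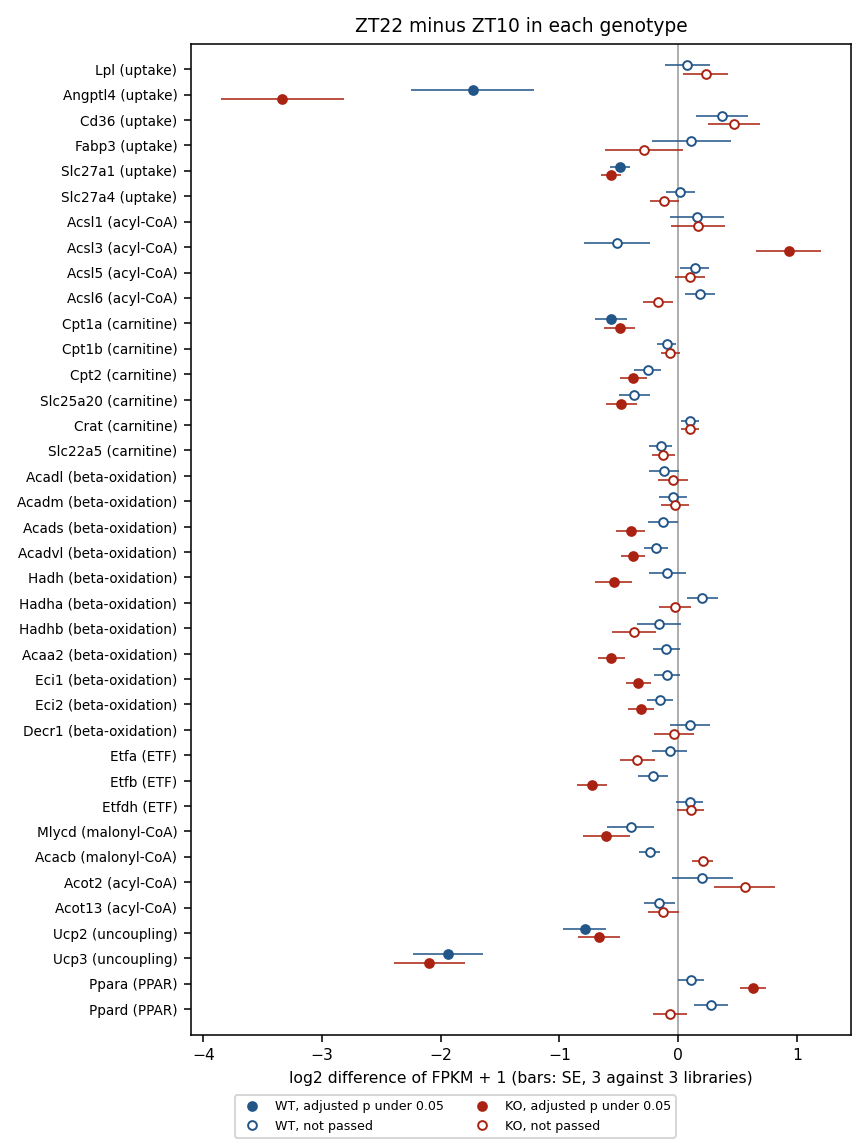
Log2 difference of FPKM + 1, ZT22 minus ZT10, for each of the 38 genes in WT and in KO, with bars for the standard error (3 against 3 libraries) and filled points for adjusted p under 0.05. Angptl4 and Ucp3 lie farthest to the left in both genotypes, and Ppara and Acsl3 are the filled points to the right, in KO.

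Ucp3, an uncoupling protein of muscle mitochondria known to rise when fatty acids are plentiful, fell with time in both genotypes. It stood at 157, 166 and 174 FPKM at ZT10 and 28.4, 49.96 and 53.9 FPKM at ZT22 in WT, and at 96.7, 124 and 153 FPKM against 47.4, 19.3 and 23.4 FPKM in KO. The times were far apart in both genotypes. It fell by 1.94 (SE 0.30, adjusted p = 0.00102) in WT and fell by 2.10 (SE 0.30, adjusted p = 0.000208) in KO. Between genotypes it did not pass at either time (-0.43 at ZT10, adjusted p = 0.365, and -0.59 at ZT22, adjusted p = 0.187), though it passed at ZT22 without KO ZT22 replicate 1. Its neighbour Ucp2, 6904 bases away on chromosome 7, stood at 10.3, 9.99 and 11.7 FPKM at ZT10 and 5.37, 7.01 and 5.01 FPKM at ZT22 in WT. In KO, Ucp2 stood at 5.84, 9.11 and 11.2 FPKM and then at 4.87, 5.45 and 4.59 FPKM. It fell by 0.79 (SE 0.18, adjusted p = 0.00849) and by 0.67 (SE 0.18, adjusted p = 0.0102), with the times apart in each genotype. The ratio of Ucp3 to Ucp2 was 13.6 to 16.7 at ZT10 and 3.55 to 10.8 at ZT22. 

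Slc27a1 was the most even of the time-dependent genes. It stood at 53.4, 52.3 and 53.9 FPKM at ZT10 and 38.7, 40.7 and 33.6 FPKM at ZT22 in WT, and at 54.5, 61.3 and 53.2 FPKM against 39.95, 36.8 and 36.2 FPKM in KO. The times did not overlap, and the genotypes overlapped at each time. It fell by 0.49 (SE 0.09, adjusted p = 0.0022) in WT and by 0.57 (SE 0.09, adjusted p = 0.000315) in KO, and both calls held without any 1 library. The letters CACGTG and TTAAGTAA in its window begin at positions -202 and -100 from the start site. Angptl4 was lower at ZT22 in both genotypes, with the values given above. It fell by 3.33 (SE 0.52, adjusted p = 0.000364) in KO and by 1.73 (SE 0.52, adjusted p = 0.0297) in WT, where the call was lost without any 1 of WT ZT10 replicates 1, 2 and 3 and WT ZT22 replicates 1 and 3 (at most 0.0958). The adipocyte sum given above was lower at ZT22 than at ZT10 in KO, as Angptl4 was. Of its 3 tested markers, Cfd (-1.17, adjusted p = 0.00958) and Retn (-0.79, adjusted p = 0.0326) passed in KO, or 66.7% beside 13.7% of all tested genes. In WT the ranges of the sum were 10.5 to 19.2 FPKM at ZT10 and 18.5 to 31.1 FPKM at ZT22, not lower at ZT22. There Adipoq alone passed, as higher at ZT22 (0.86, adjusted p = 0.0437), or 33.3% beside 18.4%. The part of adipocytes in these differences was not tested.

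Cpt1a, the liver form that commits fatty acids to mitochondria, stood at 2.80, 3.31 and 3.12 FPKM at ZT10 and 1.76, 2.20 and 1.36 FPKM at ZT22 in WT, and at 2.07, 3.02 and 2.37 FPKM against 1.61, 1.29 and 1.49 FPKM in KO. The times did not overlap, and it fell by 0.56 (SE 0.13, adjusted p = 0.0101) and by 0.49 (SE 0.13, adjusted p = 0.0102). The far more abundant Cpt1b passed in neither genotype. Slc25a20 stood at 55.7, 73.9 and 73.0 FPKM at ZT10 and 50.8, 48.6 and 44.1 FPKM at ZT22 in KO, and fell by 0.48 (SE 0.13, adjusted p = 0.0104), with the times apart. In WT it stood at 62.2, 68.1 and 76.2 FPKM and then at 47.0, 62.1 and 50.8 FPKM, apart as well but without passing (-0.37, adjusted p = 0.056). Cpt2, which regenerates acyl-CoA inside the mitochondrion, stood at 45.9, 58.6 and 52.6 FPKM at ZT10 and 46.2, 40.8 and 33.5 FPKM at ZT22 in KO. These overlapped in 1 library. Cpt2 fell by 0.38 (SE 0.11, adjusted p = 0.0178), a call lost without KO ZT10 replicate 2 or KO ZT22 replicate 3 (at most 0.0765).

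Several enzymes of the beta-oxidation cycle and the flavoprotein fell with time in KO and did not pass in WT, and none of them passed the interaction test. Etfb stood at 134, 161 and 198 FPKM at ZT10 and 107, 97.5 and 89.6 FPKM at ZT22 in KO, apart at every library, and fell by 0.73 (SE 0.13, adjusted p = 0.000882). Its WT levels were 184, 149 and 162 FPKM and 133, 141 and 151 FPKM, overlapping. Acaa2 stood at 87.2, 106 and 115 FPKM at ZT10 and 76.1, 72.0 and 59.3 FPKM at ZT22 in KO, and fell by 0.56 (SE 0.11, adjusted p = 0.00202). Acadvl, the very-long-chain dehydrogenase, stood at 159.9, 207 and 175 FPKM and then at 146, 143 and 124 FPKM, and fell by 0.38 (SE 0.10, adjusted p = 0.0101). Hadh stood at 88.4, 112 and 157 FPKM and then at 83.5, 83.3 and 71.1 FPKM, and fell by 0.54 (SE 0.16, adjusted p = 0.0141). Of these 4, only the Hadh call was lost when 1 library was left out (KO ZT22 replicate 3, adjusted p = 0.0546). Acads, Eci1, Eci2 and Mlycd also fell in KO, by 0.40, 0.34, 0.31 and 0.60, with adjusted p between 0.021 and 0.0335. Each of these calls was lost without KO ZT22 replicate 3. Eci1 and Mlycd were also lost without KO ZT10 replicate 3, Mlycd without KO ZT22 replicate 2, Acads without KO ZT10 replicate 1 or 2 or KO ZT22 replicate 2, and Eci2 without KO ZT10 replicate 2 or 3 or KO ZT22 replicate 1 (adjusted p at most 0.124 over these).

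2 genes rose with time, both in KO. Ppara, whose values are given above, rose by 0.63 ± 0.11 (adjusted p = 0.000669), its ZT10 libraries all lower than its ZT22 libraries, whereas in WT the difference of 0.11 did not pass (adjusted p = 0.504). Acsl3 rose by 0.93 ± 0.27 (adjusted p = 0.0164). Its groups overlapped, with 4.31 FPKM in the highest ZT10 library and 3.74 FPKM in the lowest ZT22 library, and the call was lost without KO ZT22 replicate 1 or 3 (at most 0.0646). Without KO ZT10 replicate 3, Lpl and Cd36 passed as well, both higher at ZT22. Lpl, Cd36, Fabp3, Acsl5, Acadl, Acadm, Decr1, Etfdh, Acot2 and Acot13 passed in none of the 5 comparisons, and the other 28 in at least 1.

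Variation between libraries of one group was largest in KO at ZT10. The median coefficient of variation of the 38 genes was 19.0% there, beside 12.8% for all tested genes, and 8.01%, 9.45% and 11.6% in WT ZT10, WT ZT22 and KO ZT22, beside 9.89%, 9.26% and 8.47%. KO ZT10 replicate 3 was the highest of its group for 24 of 38 genes (44.4% of all tested genes) and replicate 1 the lowest for 28 (41.1%). In KO at ZT22, replicate 3 was the lowest for 31 of 38 genes (32.7% of all tested genes). In WT at ZT22, replicate 1 was the lowest for 27 (28.8%). The genes of the set thus often ranked alike within a group, and the 38 genes are not independent of one another.

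The authors' deposited table gives q values for the same 4 pairs of groups. At a q under 0.05 it lists 10 of the 38 genes between genotypes at ZT10 (9 up, 1 down), beside 6.8% of all genes, and 33 at ZT22 (15 up, 18 down), beside 54.8%. For time, the authors' deposited table lists 13 in WT, all down, beside 14.5%, and 17 in KO (1 up, 16 down), beside 20.9%. No source used here states the model behind those values. The deposited genotype values at ZT22 stand apart from the rest. There the q value of Slc27a1 (0.422) lay below its deposited p-value (0.907), and the deposited p-value of Lpl was 8.26e-159. For Acadl the deposited log2 fold change was -0.83. Its FPKM at ZT22 in the same table overlapped, at 176, 220 and 190 in WT and 193, 187 and 150 in KO. The limma difference of Acadl was -0.15 (adjusted p = 0.447). With the test behind them unstated, the counts of 33 at ZT22 and 10 at ZT10 are not to be compared.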

How the data were processed

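RNA was sequenced in 12 mouse muscle libraries. GRCm38, mm10, HISAT2, HTSeq and DESeq2 1.8.2 are named, without role or order, in the submitters' processing notes. The authors deposited 1 table of FPKM values. Its header does not name the unit, which was read from the values: multiplied by median transcript length in kb they summed to 634850 to 698439 per library. With the longest transcript the sums were 1250045 to 1331336, and the length behind the values is not known. The authors' deposited log2 fold changes, p-values and q-values stand in the same table. The q-values and the signs of the fold changes were used, with the p-values of Slc27a1 and Lpl and the fold change of Acadl. Of 14583 entries, 82 without values, 230 exact repeats and 1 differing entry of a repeated symbol were dropped, and 0 library columns were left unused. In R 4.3.3, limma 3.58.1 was fitted to log2(FPKM + 1) of the 9953 genes that averaged 1 FPKM or more, two-sided, with 1 mean per group, an intensity trend and Benjamini-Hochberg adjustment, called under 0.05. The design allowed for counts, which this table does not hold. The test was tried on simulated data. The members and lists were chosen with earlier results of these data known. Library values are given for the 20 called genes with the smallest adjusted p and for Ppara, Ppard, Lpl, Cd36, Cpt1b and Ucp3, plus a few others (Fabp3, Acsl1, Etfa, Acadl) chosen after their values were seen. Of the other pathway genes, up to 3 per list with the smallest adjusted p between genotypes were open to naming. One of them is not reported here. Alternatives were a pseudocount of 0.1, no filter, a replicate block, robust empirical Bayes, a fit to the compared groups alone, median-of-ratios scaling, removal of a length trend and leaving out each library. Gene positions and lengths came from GENCODE (GRCm38) by symbol (14084 matched), and promoter windows from RefSeq (GRCm38.p6). Python 3.11.15 made tables and plots.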

Additional observations from a re-analysis of the deposited data

How the results depend on the processing

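Over 19 alternatives, 22 of the 46 called differences of single genes kept their direction and an adjusted p under 0.05 in all. A pseudocount of 0.1 kept all 46, robust empirical Bayes lost 2, no filter on low values 4, median-of-ratios scaling 3, removal of a transcript length trend 2 and a fit to only the groups compared 14 (Acads, Acsl1, Cpt1b, Crat, Etfa, Hadhb and Slc22a5 between genotypes at ZT10, Slc27a4 at ZT22, and Acads, Acsl3, Cpt2, Eci2, Hadh and Mlycd between times in KO). Some counts of called genes moved by over 1.5 times under that last fit, which has fewer libraries behind the spread. They were 6 (from 13) between genotypes at ZT10, 9 (from 5) between times in WT and 11 (from 17) between times in KO. Scaling gave 9 between times in WT. Leaving out 1 library at a time gave 6 to 13 called genes at ZT10, 5 to 16 at ZT22, 4 to 8 between times in WT, 10 to 18 in KO and 0 to 1 for the interaction, while 8.51% to 15.7%, 10.4% to 23.8%, 13% to 29.4%, 33.4% to 42.7% and 0.0201% to 0.774% of all tested genes were called in the same fits. The ZT10 count was 6 without WT ZT10 replicate 2 and 8 without replicate 3, the ZT22 count 6, 5, 7, 6 and 6 without WT ZT22 replicate 1, WT ZT22 replicate 2 and KO ZT22 replicates 1, 2 and 3, the WT time count 8 without KO ZT10 replicate 3, and the KO time count 10 without KO ZT22 replicate 3. Signs turned only for differences that had not passed: Lpl between times in WT was -0.043 after scaling and -0.079 after removal of the length trend, and over libraries left out Lpl ranged from -0.090 to 0.39 and Cd36 from -0.21 to 0.30 between genotypes at ZT10, Lpl from -0.030 to 0.22 between times in WT, and Ppard from -0.19 to 0.11 between times in KO. The cause of these shifts was not tested. With the replicate block, 13, 12, 6, 18 and 0 genes were called in the 5 comparisons, and all 46 calls were kept. For this block, the scaling and the fit to only the groups compared, no share of all tested genes is given here. Those counts thus have no background beside them. No label states whether same-numbered libraries of different groups belong together. Such libraries correlated in their deviations from -0.134 to 0.21, over 0.1 in 2 of 18 pairs. Of the 12 libraries, 7 correlated best with their own number, and whether they are paired cannot be told from these values. Depth, known only roughly, and 3 libraries per group limit how small a difference can pass.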

Other observations

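Other genes of fatty acid metabolism, taken from 6 lists chosen by role, covered 62 genes, of which 61 were in the table and 57 were tested. Between genotypes at ZT10, 5 rose and 10 fell in KO (26.3%, beside 14.3% of all tested genes, of which 5.36% rose and 8.96% fell), with a median log2 difference of -0.04, beside -0.05 for all tested genes. At ZT22, 4 rose and 13 fell (29.8%, beside 18.3%, with 7.13% up and 11.2% down), with a median of -0.20, beside -0.04. Of 10 tested partners of the PPARs, 0 rose at either time, 4 fell at ZT10 and 3 at ZT22, and these shares are to be read against the same 8.96% and 11.2% of all tested genes. Rxrg, a retinoid X receptor that pairs with PPARs, had a mean of 37.0 ± 4.02 FPKM in WT and of 26.7 ± 5.45 FPKM in KO at ZT10 (SD, n = 3), and at 40.03 ± 1.42 against 24.4 ± 3.86 FPKM at ZT22. It fell by 0.47 (adjusted p = 0.0491) and by 0.70 (adjusted p = 0.00615) in limma. Rxra fell by 0.37 and 0.46, and Esrra, an orphan receptor that drives oxidative genes, by 0.32 and 0.54. 

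Peroxisomal oxidation held 11 tested genes, with 1 that rose and 3 that fell at ZT10, and 0 and 2 at ZT22 in limma. That is 36.4% and 18.2% of the list, beside 14.3% and 18.3% of all tested genes called in either direction. The ZT22 share was thus near that of all tested genes. Abcd2, a fatty acid transporter of the peroxisomal membrane, rose at ZT10, by 0.45 (12.8 ± 1.75 against 17.8 ± 1.12 FPKM). Hsd17b4, the bifunctional enzyme of peroxisomes, fell by 0.37 and 0.38. Among 10 other mitochondrial genes, Acat1, the thiolase of ketone body use, rose by 0.29 and 0.30, and Acadsb, which acts on short branched chains, rose at ZT22 by 0.63 (38.6 ± 1.43 against 60.3 ± 0.33 FPKM). In the same list 2 genes fell at ZT22, among them Nudt7, a CoA hydrolase of peroxisomes, by 0.65. Of this mitochondrial list 10% was called at ZT10 and 40% at ZT22, beside the same 14.3% and 18.3% of all tested genes. Of 9 tested genes of uptake and lipases, Dbi, a binding protein of acyl-CoA, rose at ZT10 by 0.48, and Fabp5 and Lmf1 fell at ZT22 by 0.62 and 0.47. The shares called were 11.1% at ZT10 and 22.2% at ZT22, near the 14.3% and 18.3% of all tested genes. Of 10 tested PPAR targets, 2 rose and 2 fell at each time, beside 14.3% and 18.3% of all tested genes called in either direction. Plin5, which tethers lipid droplets to mitochondria, averaged 11.2 ± 1.53 FPKM in WT and 40.3 ± 15.6 FPKM in KO at ZT10 and rose by 1.70 (adjusted p = 0.000394), and at ZT22 by 0.96 (adjusted p = 0.0128). Pnpla2, the triglyceride lipase of lipid droplets, rose from 151 ± 8.19 to 239.7 ± 13.003 FPKM at ZT10 (0.67, adjusted p = 0.000217) and from 142 ± 13.7 to 263 ± 10.02 FPKM at ZT22 (0.88, adjusted p = 2.63e-05). Plin2, a coat protein of lipid droplets, was lower in KO at both times, by -0.55 (adjusted p = 0.00593) and -1.05 (adjusted p = 6.94e-05). Of 7 tested genes of fatty acid and triglyceride synthesis, Dgat1 fell at ZT10 by 0.55, and Scd2 and Gpam fell at ZT22 by 0.60 and 0.72. That is 14.3% and 28.6% of the synthesis list, beside 14.3% and 18.3% of all tested genes. None of these lists was tested as a whole.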
